A study of Homo sapiens with 3 samples.

Results

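The unedited control library of HEK293 cells was described by the level of each gene symbol, with all 26209 symbols of its table as members and only the rows named by a calendar date left out. HEK293 is an established line obtained from human embryonic kidney cells and transformed with adenovirus DNA. Per the labels, the cells carried the control genotype, received no treatment and were grown in DMEM with 10% fetal bovine serum. Polyadenylated RNA was sequenced from stranded libraries. The series holds 3 libraries, and the other 2 come from clones 114 and 174 with a partial KANK1 knockout, which carry the same 26209 symbols and were used here only beside 1 doubtful gene and in a count of symbols present in all 3 libraries. The edited gene itself, KANK1, which encodes a scaffold that links adhesion sites to microtubules, stood at 4.49 FPKM in the unedited cells. FPKM gives sequenced fragments scaled for transcript length and for the size of the library, so levels of different genes can be set side by side within the library. There is 1 library and no replicate, so no value has a spread, no test was possible, and the order of genes with close levels is not established.

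Lines transformed in culture express the genes of dividing cells, and often only some of the genes that define their tissue. Kidney epithelium is specified by transcription factors of the PAX and LIM families, and each nephron segment is known for its own transporters. Neurons are known for neurofilaments, synaptic vesicle proteins and neural transcription factors, and adrenal cortex for NR5A1 and the cytochrome P450 enzymes of steroid synthesis. HEK293 cells have been discussed as having neuronal or adrenal features, because neurofilament proteins were found in them. The adenovirus E1A protein they carry binds the retinoblastoma protein.

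The promoters of the most abundant genes are shown first, because the start of transcription is where many of them share a sequence feature. Ribosomal protein and elongation factor messages usually begin with a C followed by a run of pyrimidines, the TOP motif through which mTOR controls their translation. The stretches run from 50 bases before to 20 bases after the RefSeq start in GRCh38.p14, and capitals mark each C followed by at least 4 pyrimidines (C or T) within the bases from -2 to 12 around the start. RPL37A, RPL39, RPL7A and RPLP1 encode ribosomal proteins, EEF1A1 the factor that brings aminoacyl-tRNA to the ribosome, GAPDH a glycolytic enzyme, and AMBN an enamel matrix protein, given as a gene of restricted tissue range.
RPL37A, chr2:216498794-216498863, plus strand: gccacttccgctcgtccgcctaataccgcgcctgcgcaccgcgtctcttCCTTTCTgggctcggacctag
RPL39, chrX:119791611-119791680, minus strand: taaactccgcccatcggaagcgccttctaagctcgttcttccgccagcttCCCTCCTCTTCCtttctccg
RPL7A, chr9:133348168-133348237, plus strand: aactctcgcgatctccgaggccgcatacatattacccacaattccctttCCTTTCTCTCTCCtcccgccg
RPLP1, chr15:69452768-69452837, plus strand: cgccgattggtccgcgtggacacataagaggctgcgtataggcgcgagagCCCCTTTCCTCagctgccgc
EEF1A1, chr6:73521013-73521082, minus strand: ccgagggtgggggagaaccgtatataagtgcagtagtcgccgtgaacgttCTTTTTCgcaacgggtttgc
GAPDH, chr12:6535214-6535283, plus strand: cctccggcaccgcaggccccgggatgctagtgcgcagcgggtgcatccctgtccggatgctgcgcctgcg
AMBN, chr4:70592206-70592275, plus strand: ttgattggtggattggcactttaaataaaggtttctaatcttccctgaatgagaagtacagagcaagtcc
RPL37A, RPL39, RPL7A, RPLP1 and EEF1A1 each hold the run at the start, whereas GAPDH and AMBN hold none there. Not every high ribosomal protein gene has it within this window. Among promoters not shown, RPL38 holds the run, whereas RPS4X, RPL19 and ACTG1 hold none in the window. In RPL19 a run of pyrimidines ends at the last base before the RefSeq start, so it lies mostly before the window. The AMBN window of 300 bases, from 250 before to 50 after the start, has 5 CG dinucleotides, against 28 in that of GAPDH and 29 in that of RPL7A.

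The highest ranks of the library were held mostly by the machinery of protein synthesis. RPS4X, a protein of the small ribosomal subunit, had the highest level of all symbols at 5179 FPKM, followed by RPS2 at 3454 FPKM and by RPL37A at 3241 FPKM, RPL39 at 3210 FPKM and RPL7A at 3143 FPKM of the large subunit. GNB2L1, which encodes the ribosome-bound scaffold RACK1, stood at 2960 FPKM, and EEF1A1 at 2621 FPKM. Among the 30 highest symbols, 22 were ribosomal protein genes, as were 60 of the 100 highest. The 79 ribosomal protein genes held 21.1% of the summed FPKM of 530251, with a median of 1309 FPKM. Outside translation, the 30 highest held the glycolytic enzymes GAPDH at 2789 FPKM and ENO1 at 1908 FPKM, the cytoplasmic actins ACTG1 at 2634 FPKM and ACTB at 1832 FPKM, and TMSB4X, which encodes the actin-sequestering peptide thymosin beta-4, at 2048 FPKM.

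Of the 26209 symbols, 12330 (47%) stood at or above 1 FPKM and 6905 (26.3%) at or above 10 FPKM, and 9422 (35.9%) were listed at 0. A further 4457 symbols lay above 0 and under 1 FPKM. The symbols at or above 1 FPKM had a median of 12.1 FPKM and quartiles of 4.91 and 29.8 FPKM. Only 887 symbols reached 100 FPKM and 79 reached 1000 FPKM. The 10 highest symbols held 6.07% of the summed FPKM, the 100 highest 29.7% and the 1000 highest 62.6%. It took 454 symbols to hold 50% of the sum and 4885 to hold 90%.

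**Figure D1:**
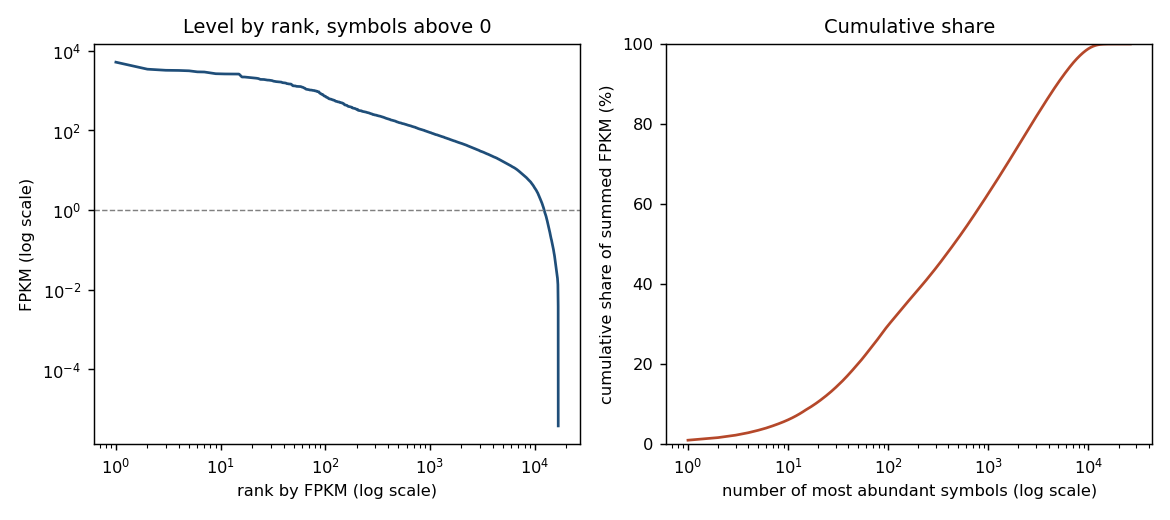
Left, the FPKM of each symbol above 0 in the unedited library against its rank, both on log scales, with the dashed line at 1 FPKM. Right, the cumulative share of the summed FPKM (%) held by the most abundant symbols, with their number on a log scale: 454 symbols hold 50% and 4885 hold 90%.

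Protein-coding genes, by RefSeq type, held 97.7% of the summed FPKM, with 11598 of 18929 (61.3%) at or above 1 FPKM. Of 2921 long non-coding RNA genes, 382 reached 1 FPKM, with the small nucleolar RNA host gene SNHG25 the highest at 767 FPKM. SNHG8, at 205 FPKM, and SNHG5, at 164 FPKM, are hosts of the same kind, and 18 of the 21 SNHG genes stood at or above 1 FPKM. All 1800 microRNA genes were listed at 0, as were all 34 small nuclear RNA genes and 346 of 361 small nucleolar RNA genes. A library of polyadenylated RNA with fragments longer than these RNAs does not measure them, so these values were read as not measured. Families of restricted tissue range were near 0: none of 374 olfactory receptor genes and none of 93 keratin-associated protein genes reached 1 FPKM, against 377 of 476 zinc finger genes of the ZNF series.

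The depth behind a value was read from the steps of low genes. Among genes with a single annotated transcript of at least 1500 bases and at most 0.3 FPKM, 70.1% of 211 genes lay within 0.1 of a whole number of fragments from 1 to 5 at a depth of 16300000 fragments, with a fragment length of 200 bases assumed. The depth was fitted to low values of these same genes, so this share is no independent check of it. At this depth 1 FPKM of a transcript of 2000 bases is 29.4 fragments, with a counting error of 18.4% (SD). A gene listed at 0 with such a transcript may stand at up to 0.102 FPKM, the value of 3 fragments, and 1 of 1000 bases at up to 0.229 FPKM. These limits cover counting error only, and a 0 can also be a failed estimate.

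Some values could not be read as levels. RPL21, a ribosomal protein gene, stood at 0.0140 FPKM while its processed pseudogene RPL21P28 stood at 267 FPKM. H3F3A, which encodes histone H3.3, was listed at 0 while H3F3AP4 stood at 358 FPKM, and the ubiquitin ligase gene RNF5 stood at 2.5e-04 FPKM while RNF5P1 stood at 19.8 FPKM. RPL13AP5 stood at 2619 FPKM, the rank of 12 among all symbols, and its parent RPL13A at 474 FPKM. Of 373 pseudogenes whose symbol names a coding parent in the table, 26 stood above that parent, and so did 6 of the 12 at or above 10 FPKM. How fragments were shared between near-identical copies was not given in the sources used here, so levels of both members of such a pair are uncertain. RPS18, of the small ribosomal subunit, stood at 6.72 FPKM in the unedited library, against 341 FPKM in clone 114 and 9.94 FPKM in clone 174. RNF5 and RPS18 also lie in a stretch of chromosome 6 that was low as a group.

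Genes of a stretch of chromosome 6, from GABBR1 to KIFC1 in the RefSeq order, were low as a group. This stretch holds the major histocompatibility complex (MHC) and many genes that every cell uses. Of its 141 protein-coding symbols, 31 (22.0%) stood at or above 1 FPKM and 5 (3.55%) at or above 10 FPKM, with a median of 0.0402 FPKM. Of the other 760 coding symbols of chromosome 6, 484 (63.7%) stood at or above 1 FPKM and 284 (37.4%) at or above 10 FPKM, with a median of 4.92 FPKM. Low members with roles common to all cells were CSNK2B, a subunit of casein kinase II, at 0.459 FPKM, ABCF1, a translation factor, at 0.117 FPKM, and DDX39B, an RNA helicase of mRNA export, at 1.19 FPKM. The class I genes HLA-C and HLA-B, which present peptides to T cells, were the highest of the stretch at 108 and 61.0 FPKM. The stretch was picked after its values were seen. The build hg19 carries further copies of it as alternate haplotypes, and whether reads were aligned against them is not given in the sources used here and their part was not tested.

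**Figure D2:**
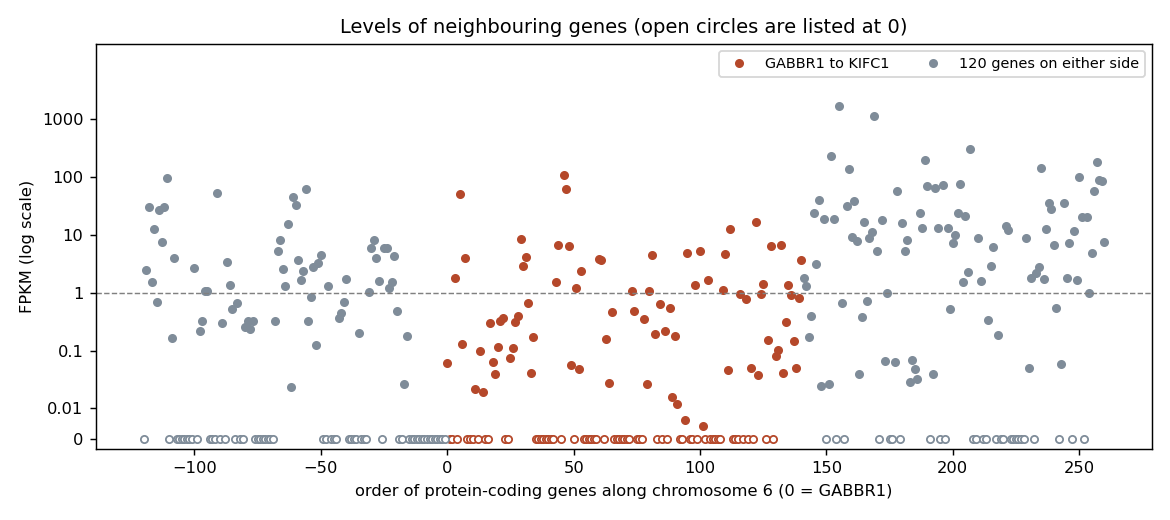
FPKM (log scale) of protein-coding genes in their RefSeq order along chromosome 6, counted from GABBR1, with the 141 genes from GABBR1 to KIFC1 in red and 120 genes on either side in grey. Open circles are listed at 0 and values under 0.005 FPKM are drawn at 0.005. Within the stretch 5 genes stand at or above 10 FPKM, and the grey genes to its left include histone and olfactory receptor genes.

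The pseudoautosomal genes at the end of chromosome X, which have a second copy on chromosome Y, showed a like pattern. Of 13 symbols from PPP2R3B to CD99, 4 stood at or above 1 FPKM and none at or above 10 FPKM, against 374 and 239 of the other 733 coding symbols of the chromosome. SLC25A6, an ADP/ATP carrier, stood at 9.63 FPKM. The levels of genes of both stretches are uncertain.

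Promoter composition differed between level classes. Promoter windows of 300 bases were matched for 14304 protein-coding symbols. Windows of the 2929 genes listed at 0 held 8.23 CG dinucleotides on average, against 25.8 for the 3684 genes from 1 to 10 FPKM, 28.0 for the 640 genes from 100 to 1000 FPKM and 24.5 for the 64 genes at or above 1000 FPKM. The letters TATAAA between -45 and -16 were found in 9.90% of windows of genes listed at 0, against 1.02% for the 4721 genes from 10 to 100 FPKM, 2.66% for those from 100 to 1000 FPKM, 3.13% at or above 1000 FPKM and 3.54% for all 14304. CTTCCG on either strand, the core letters bound by ETS factors, was in 8.88% of windows of genes listed at 0 and in 53.1% of those at or above 1000 FPKM, against 25.8% of all. Of the 63 ribosomal protein windows 61.9% held these letters, and so did 5 of the 20 genes at or above 1000 FPKM that encode no ribosomal protein. From 100 FPKM upwards, 42.8% of the 643 windows of genes without a ribosomal protein held them. GGGCGG on either strand, the letters of a GC box, was in 24.5% of windows of genes listed at 0, in 74.1% of those from 10 to 100 FPKM and in 60.9% of those at or above 1000 FPKM, against 59.5% of all.

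The pyrimidine run at the start was found in 51 of 63 ribosomal protein windows (81.0%), against 19.1% of all 14304. Of the 64 genes at or above 1000 FPKM 62.5% held it, but of the 20 among them that encode no ribosomal protein only 4 did, and GAPDH and ACTG1 were not among them. A match says only that these letters are in the window, and RPS4X, the highest gene, had no such run at its RefSeq start. A run that lies mostly before the window, as in RPL19, was not counted.

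The gene lists below cover 1910 symbols, of which 1052 stood at or above 1 FPKM, that is 55.1%, against 47% of all symbols and 61.3% of protein-coding ones. Levels given for them are FPKM in this library, and where a list is said to hold a number of genes, it is the number matched to the table. Each count at or above 1 FPKM is to be read beside the 61.3% of protein-coding symbols.

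Besides ribosomal proteins, all 7 elongation factor genes and all 32 initiation factor genes of their lists stood at or above 1 FPKM. The helicase gene EIF4A1, at 1224 FPKM, and EIF5A, at 859 FPKM, led the initiation factors. Of the elongation factors, EEF1A1 stood 38.1 times above EEF1A2, its neuronal and muscle form, at 68.8 FPKM. Cytosolic chaperones were led by HSP90AA1 at 983 FPKM, HSPA8, the constitutive HSP70, at 885 FPKM and HSP90AB1 at 641 FPKM. The stress-induced HSPA1A and HSPA1B, which lie in the low stretch of chromosome 6, stood at 1.07 and 4.51 FPKM. Nuclear genes were led by PTMA, the acidic prothymosin alpha, at 1659 FPKM, by the nucleolar NPM1 at 1499 FPKM and by H2AFZ, a histone variant, at 807 FPKM.

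Genes of proliferation were listed together with cell cycle inhibitors and genes of the p53 pathway. Of these 46, 43 (93.5%) stood at or above 1 FPKM, against 61.3% of all protein-coding symbols. Of the same 46, 32 stood at or above 10 FPKM, and the median was 19.6 FPKM. The replication clamp PCNA stood at 316 FPKM, the mitotic cyclin CCNB1 at 207 FPKM, topoisomerase TOP2A at 156 FPKM and the cyclin-dependent kinases CDK4 and CDK1 at 156 and 102 FPKM. CDKN2A, which encodes the cell cycle inhibitor p16, stood at 163 FPKM, the next highest of the list after CCNB1. CDKN1A, the inhibitor p21, stood at 71.0 FPKM and the ubiquitin ligase gene MDM2 at 47.6 FPKM. RB1, the retinoblastoma gene, stood at 28.1 FPKM. TERT, the telomerase reverse transcriptase, was low at 0.796 FPKM, which is 39.2 to 49.7 fragments over its annotated coding transcripts.

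Glycolytic transcripts were mostly those of the ubiquitous isoforms. Over 17 small families of metabolic enzymes and cytoskeletal proteins, the leading member stood at least 10 times above the next in 8. These 8 include the ADP/ATP carriers, whose member SLC25A6 has an uncertain level. ALDOA, the aldolase of muscle and most cells, stood at 1072 FPKM and 100 times above ALDOC at 10.7 FPKM. ENO1 stood 44.8 times above the neuronal enolase ENO2 at 42.6 FPKM. PKM, the pyruvate kinase of most tissues, stood at 933 FPKM with the liver and red cell gene PKLR listed at 0, and PGK1 stood at 544 FPKM with the testis gene PGK2 listed at 0. Of the hexokinases, HK1 stood at 54.7 FPKM, 5.20 times above HK2 at 10.5 FPKM.

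In other families the members shared the level. The phosphofructokinases PFKL and PFKP stood at 87.3 and 80.2 FPKM, with the muscle form PFKM at 23.1 FPKM. LDHB, the heart-type lactate dehydrogenase subunit, stood at 1035 FPKM and LDHA, the muscle-type subunit, at 718 FPKM, a ratio of 1.44. Pyruvate dehydrogenase kinases PDK2, PDK1 and PDK3, which shut the entry of pyruvate into the citric acid cycle, stood at 32.2, 21.7 and 18.6 FPKM, with PDK4 at 1.72 FPKM. With no replicate, neither of these orders is set against an error.

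**Figure D3:**
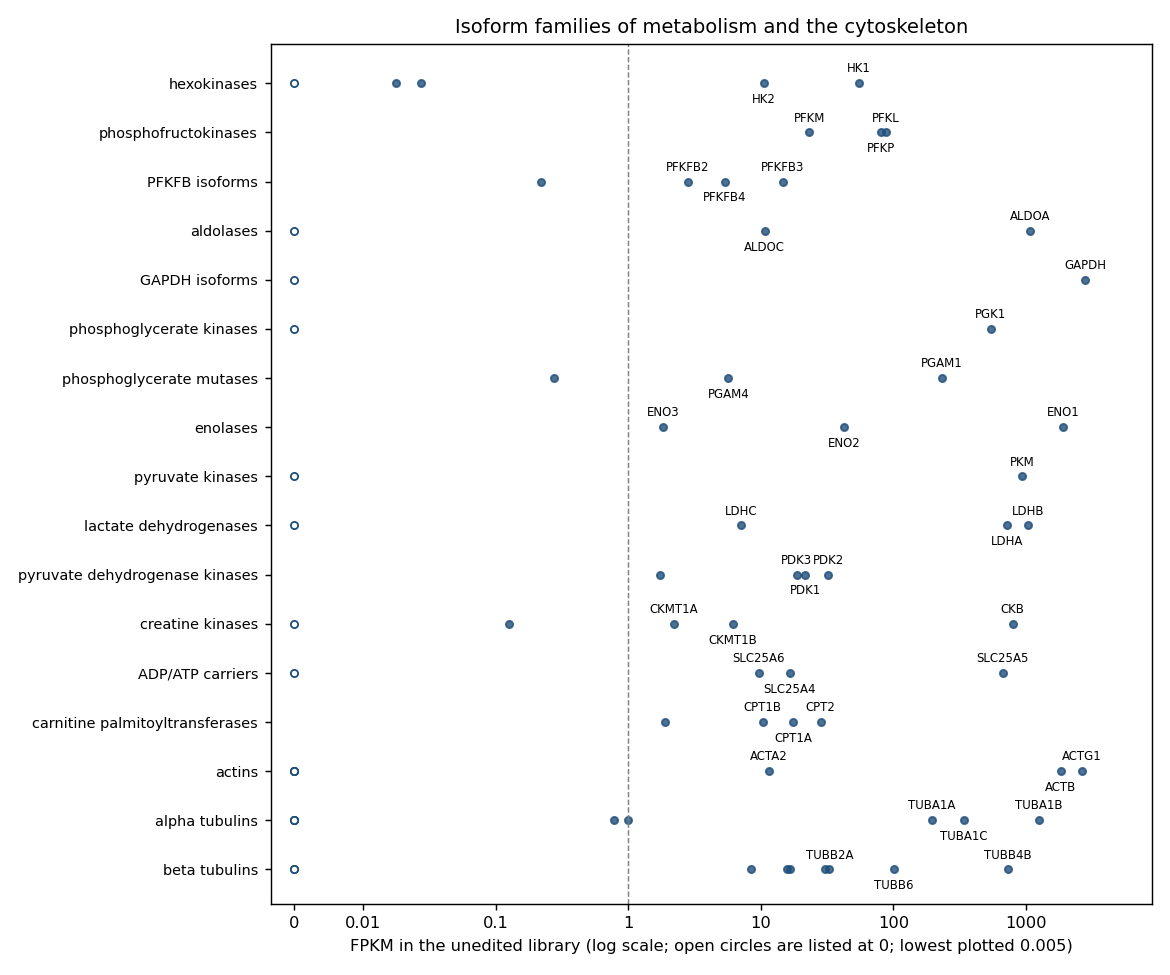
FPKM (log scale) of the members of 17 isoform families, 1 family per row, with open circles for genes listed at 0 and the highest members at or above 1 FPKM named. ALDOA, ENO1, CKB and SLC25A5 stand at least 10 times above the next member, and LDHB and LDHA, or PFKL and PFKP, stand close together. The lead of SLC25A5 is uncertain because the level of SLC25A6, of the same family, is uncertain.

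Energy transfer showed a brain-type creatine kinase. CKB stood at 792 FPKM, 130 times above the mitochondrial CKMT1B at 6.11 FPKM, and the muscle gene CKM stood at 0.125 FPKM. Of the ADP/ATP carriers of the inner mitochondrial membrane, SLC25A5 stood at 669 FPKM and SLC25A4 at 16.4 FPKM. The value of the pseudoautosomal SLC25A6, 9.63 FPKM, is uncertain as given above. The ubiquitous cytochrome oxidase subunits COX6A1, COX8A and COX4I1 stood at 791, 601 and 381 FPKM, while the muscle or lung forms COX6A2, COX7A1 and COX4I2 were listed at 0.

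Uptake and biosynthesis genes followed. The monocarboxylate transporter SLC16A1 stood at 82.8 FPKM, 21.2 times above SLC16A3, and the glucose transporters SLC2A1 and SLC2A3 at 42.7 and 21.2 FPKM. The glutamine transporter SLC1A5 stood at 161 FPKM. Of 13 serine and folate-cycle enzymes, 10 stood at or above 10 FPKM, with thymidylate synthase TYMS at 388 FPKM and PHGDH, which opens serine synthesis, at 169 FPKM. Lipid synthesis genes ACLY, FASN and SCD stood at 148, 116 and 110 FPKM. Genes of gluconeogenesis and the urea cycle were mixed. Of 7 gluconeogenic genes, 3 stood at or above 1 FPKM, with G6PC3 at 76.7 FPKM, PCK2 at 16.8 FPKM and PC at 6.55 FPKM, whereas PCK1 stood at 0.887 FPKM and G6PC, the terminal enzyme of glucose release in liver and kidney, was listed at 0. Of 6 urea cycle genes, 4 stood at or above 1 FPKM, led by ASS1 at 36.9 FPKM and ARG2 at 23.3 FPKM, and OTC and ARG1 were listed at 0.

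The cytoskeleton combined mesenchymal and simple epithelial filaments. VIM, the intermediate filament of mesenchyme, stood at 523 FPKM, and the paired simple epithelial keratins KRT8 and KRT18 stood at 273 and 134 FPKM. KRT19 stood at 4.07 FPKM, and the keratins of stratified epithelia KRT5 and KRT14 were listed at 0. The nuclear lamin genes LMNB1 and LMNA stood at 150 and 40.7 FPKM. Among tubulins, TUBA1B stood at 1249 FPKM and TUBB4B at 730 FPKM, with TUBB3, the form known from neurons, at 15.7 FPKM. TUBB, a widely expressed beta tubulin, stood at 8.43 FPKM, but it lies in the low stretch of chromosome 6. The muscle actins ACTA1, ACTC1 and ACTG2 were listed at 0 and the smooth muscle actin ACTA2 stood at 11.4 FPKM.

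Kidney lineage transcription factors were present in part. Of 41, 30 (73.2%) stood at or above 1 FPKM, against 61.3% of all protein-coding symbols. Of the same 41, 5 reached 10 FPKM, a level reached by 6771 of 18929 protein-coding symbols. FOXC1, a forkhead factor of mesoderm, stood at 46.4 FPKM, FOXD1, a factor of kidney stroma, at 16.8 FPKM and HOXD11, which patterns the metanephros, at 11.5 FPKM. SALL1, of the nephron progenitors, stood at 7.31 FPKM, GATA3, of the nephric duct, at 5.62 FPKM, and SIX2, the nephron progenitor factor, at 2.1 FPKM. WT1, needed for kidney formation and in podocytes, stood at 2.60 FPKM and LHX1 at 1.65 FPKM.

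The factors of committed renal epithelium were at the lower end. PAX2 stood at 0.368 FPKM, at most 23.7 fragments over its annotated coding transcripts. PAX8, its partner in the nephric lineage, stood at 0.0178 FPKM, at most 1.15 fragments. HNF4A, of the proximal tubule, stood at 0.0142 FPKM. Set against the label of embryonic kidney, 3 of the 9 kidney markers reported here stood at or above 1 FPKM, namely WT1, LHX1 and LRP2. The defining marker PAX8 stood at the level of about 1 fragment and CDH16 and UMOD were listed at 0. The summed level of the 9 was 5.91 FPKM.

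Genes of the nephron segments were mostly near 0. None of 16 genes of the loop and distal tubule reached 1 FPKM, among them UMOD, which encodes uromodulin, and SLC12A1, the target of loop diuretics, both listed at 0. Of 26 proximal tubule genes, 5 reached 1 FPKM, with GGT1, the brush border gamma-glutamyltransferase, at 15.8 FPKM, and LRP2, the endocytic receptor megalin, at 1.09 FPKM. AQP3, a basolateral water channel, at 2.34 FPKM, was the highest of 16 collecting duct genes, and AQP2, the vasopressin-regulated channel, was listed at 0. Of 13 podocyte genes, 7 (53.8%) reached 1 FPKM, against 61.3% of all protein-coding symbols. They were led by ACTN4 at 80.4 FPKM and CD2AP at 23.1 FPKM, both of which are also found in other cells. The slit diaphragm gene NPHS1 stood at 0.0127 FPKM.

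Neuronal cytoskeleton genes were uneven. STMN1, a tubulin-sequestering protein of dividing cells and neurons, stood at 396 FPKM and STMN3 at 64.0 FPKM, but STMN2, the neuronal stathmin of growth cones, was listed at 0. NEFL, the light neurofilament subunit, stood at 54.6 FPKM, or 1501 to 3469 fragments over its coding transcripts, and INA, alpha-internexin, at 7.79 FPKM. The medium and heavy subunits stood at 0.264 FPKM (NEFM) and 0.366 FPKM (NEFH), so the neurofilament genes did not go together. DCX, a microtubule protein of migrating neurons, was listed at 0. MAPT, which encodes tau, stood at 1.08 FPKM.

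Vesicle and identity genes showed the same mixture. CPE, a peptide-processing carboxypeptidase, stood at 115 FPKM, and VAMP2, SV2A and SYT1, proteins of synaptic vesicles, at 26.9, 14.1 and 5.43 FPKM. SNAP25, their partner at the plasma membrane, and SYN1, synapsin, stood at 0.396 and 0.247 FPKM, and RBFOX3, the NeuN antigen, at 0.0878 FPKM. UCHL1, a ubiquitin hydrolase abundant in neurons, stood at 182 FPKM and NCAM1 at 8.49 FPKM. Of 22 neurotransmitter enzymes and transporters, 5 reached 1 FPKM and 11 were listed at 0, with GAD1, which makes GABA, at 4.36 FPKM. Over the 10 neuronal markers, 3 stood at or above 1 FPKM (NEFL, TUBB3 and INA) and the summed level was 79.5 FPKM.

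A calcitonin family peptide had a very high level. CALCB, which encodes the beta form of calcitonin gene-related peptide, stood at 427 FPKM, while its paralog CALCA stood at 0.0842 FPKM. The other neuropeptide genes at or above 10 FPKM were NMU, neuromedin U, at 24.1 FPKM and NMB, neuromedin B, at 15.8 FPKM. Of 24 neuropeptide genes, 8 reached 1 FPKM and 10 were listed at 0. RAMP1, a subunit of the receptor for this peptide, stood at 10.4 FPKM, and CALCRL, the other subunit, at 0.196 FPKM.

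Neural transcription factors of unrelated lineages were present in part. Of 55, 31 (56.4%) stood at or above 1 FPKM, under the 61.3% of all protein-coding symbols. Of the same 55, 9 reached 10 FPKM, a level reached by 6771 of 18929 protein-coding symbols. SOX4 stood at 38.0 FPKM, DLX2 and DLX1, of forebrain interneurons, at 24.9 and 13 FPKM, POU3F2 at 13.4 FPKM, EN2, of midbrain and hindbrain, at 10.8 FPKM and PAX6, of eye and forebrain, at 10.0 FPKM. SOX2, of neural progenitors and pluripotent cells, stood at 8.26 FPKM. The neurogenic factor NEUROG2 stood at 0.117 FPKM and NEUROD1 was listed at 0.

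HOX genes, which set position along the body axis, were mostly present. Of 39, 33 (84.6%) stood at or above 1 FPKM, against 61.3% of all protein-coding symbols. By cluster, these were 10 of 11 in HOXA, 9 of 10 in HOXB, 6 of 9 in HOXC and 8 of 9 in HOXD. HOXB9 stood at 35.5 FPKM, HOXA10 at 32.0 FPKM, HOXA9 at 26.1 FPKM and HOXB7 at 19.7 FPKM. HOXB1, of the hindbrain, was listed at 0, and HOXD13, of the body's posterior end, stood at 10.6 FPKM.

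Factors of further lineages were present in part. Of 50, 23 (46.0%) stood at or above 1 FPKM, against 61.3% of all protein-coding symbols. Their median was 0.424 FPKM and 14 were listed at 0. Of the same 50, 5 reached 10 FPKM, a level reached by 6771 of 18929 protein-coding symbols. NKX2-5, of the heart, stood at 22.0 FPKM, MESP1, of early mesoderm, at 20.1 FPKM, CDX2, of the intestine and trophoblast, at 17.0 FPKM and FOXA1 at 10.5 FPKM. The muscle factors MYOG and MYF5 were listed at 0, as were NANOG and POU5F1 of pluripotent cells, the last of which lies in the low stretch of chromosome 6.

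Genes specific to adrenal cortex were close to the level of single fragments. NR5A1, the master factor of steroid-producing cells, stood at 0.0212 FPKM, which is at most 1.01 fragments. STAR, which carries cholesterol into mitochondria, stood at 0.0245 FPKM, CYP11A1, the side-chain cleavage enzyme, at 0.0706 FPKM and CYP17A1 at 0.0366 FPKM, and the ACTH receptor gene MC2R was listed at 0. CYP21A2 was listed at 0 too, but it lies in the low stretch of chromosome 6. None of the 7 adrenal cortex markers reached 1 FPKM, and their sum was 0.234 FPKM. Of the 27 steroidogenic genes, 9 stood at or above 1 FPKM and 7 at or above 10 FPKM. Those include genes with roles in many cells, such as FDXR and POR, which pass electrons to P450 enzymes, at 38.8 and 34.0 FPKM, and CYB5A, cytochrome b5, which led the list at 72.2 FPKM. Of 16 adrenal and gonadal transcription factors, 8 stood at or above 1 FPKM, led by the co-activator gene CITED2 at 43.6 FPKM. NR0B1, which encodes the repressor DAX1 of adrenal and gonad, stood at 1.06 FPKM.

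Of 22 chromaffin and sympathetic genes, 5 stood at or above 1 FPKM, led by the transcription factor GATA2 at 14.9 FPKM. TH and DBH, enzymes of catecholamine synthesis, were listed at 0. PNMT, which makes adrenaline, stood at 2.35 FPKM, and CHGA, a granule protein, at 0.199 FPKM. GATA4 and GATA6, which act in gonad and adrenal as in heart and gut, stood at 11.2 and 14.4 FPKM.

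**Figure D4:**
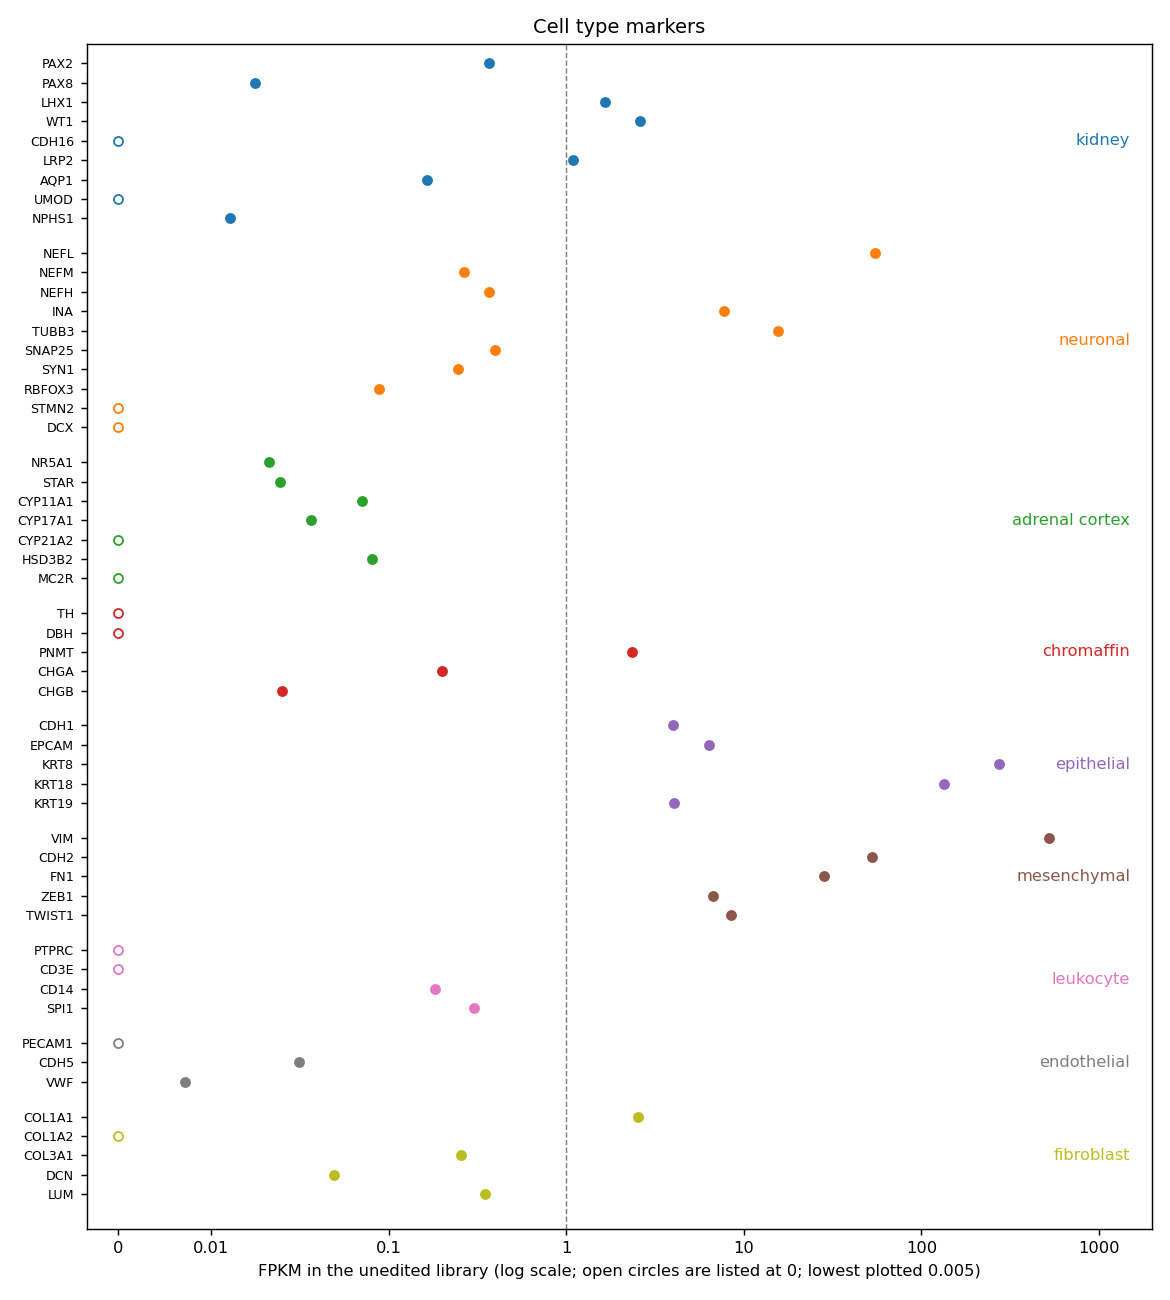
FPKM (log scale) of cell type markers in the unedited library, grouped by type, with open circles for genes listed at 0 and the dashed line at 1 FPKM. All 5 epithelial and all 5 mesenchymal markers stand at or above 1 FPKM, as do 3 of 9 kidney and 3 of 10 neuronal markers and none of the adrenal cortex, leukocyte and endothelial markers.

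Markers of cells that a culture could have held besides were low. The leukocyte markers PTPRC and CD3E and the endothelial marker PECAM1 were listed at 0, and CDH5 stood at 0.0312 FPKM. None of the 4 leukocyte markers and none of the 3 endothelial markers reached 1 FPKM. Of the 5 fibroblast markers, COL1A1 stood at 2.54 FPKM and COL1A2 was listed at 0. LCP1, the actin-bundling plastin of leukocytes that is also found in tumour cells, stood at 30.1 FPKM, and EGFL7, a secreted protein of endothelium, at 12.6 FPKM. Of 50 genes restricted to other tissues, such as globins, albumin and muscle myosins, the enamel gene AMBN was the only member at or above 1 FPKM, at 34.1 FPKM, or 732 to 1007 fragments.

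G protein-coupled receptors for soluble ligands were few. Over 6 lists, 26 of 174 (14.9%) stood at or above 1 FPKM, against 61.3% of all protein-coding symbols. The median was 0.0373 FPKM. Of the same 174, 4 stood at or above 10 FPKM, against 6771 of 18929 protein-coding symbols. The 4 were F2RL1 at 28.6 FPKM and F2R at 17.5 FPKM, the receptors that trypsin-like proteases and thrombin cleave, CXCR4, the receptor of CXCL12, at 28.3 FPKM, and ADORA2B, an adenosine receptor, at 13.2 FPKM. Aminergic receptors reached at most 9.66 FPKM, for ADRA2C, with the muscarinic CHRM3 at 2.19 FPKM. The other muscarinic genes were listed at 0, apart from CHRM4 at 0.226 FPKM. Of 62 peptide receptor genes, 4 reached 1 FPKM and none exceeded VIPR1 at 1.95 FPKM. AGTR1, the angiotensin receptor, stood at 0.767 FPKM. No dopamine receptor reached 0.1 FPKM, DRD1 being the highest at 0.0773 FPKM.

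Of 16 genes for Frizzled, LGR and related Wnt and Hedgehog receptors, 15 stood at or above 1 FPKM, with SMO, the Hedgehog transducer, at 22.4 FPKM and LGR4, a receptor of R-spondin, at 16.6 FPKM. Of 54 receptor tyrosine kinase genes, 34 (63.0%) stood at or above 1 FPKM, close to the 61.3% of all protein-coding symbols. They were led by the ephrin receptor EPHA7 at 32.6 FPKM, the Wnt co-receptor PTK7 at 29.4 FPKM, RYK at 26.4 FPKM, ERBB2 at 23.9 FPKM and the hepatocyte growth factor receptor MET at 19.6 FPKM. EGFR stood at 1.35 FPKM and PDGFRA at 0.309 FPKM. DDR1, a collagen receptor in the low stretch of chromosome 6, stood at 0.672 FPKM. BMPR1A at 16.0 FPKM and TGFBR1 at 13.7 FPKM led the 14 TGF-beta family receptors, of which 11 reached 1 FPKM. The adhesion receptor ADGRL2, a latrophilin, stood at 33.1 FPKM.

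**Figure D5:**
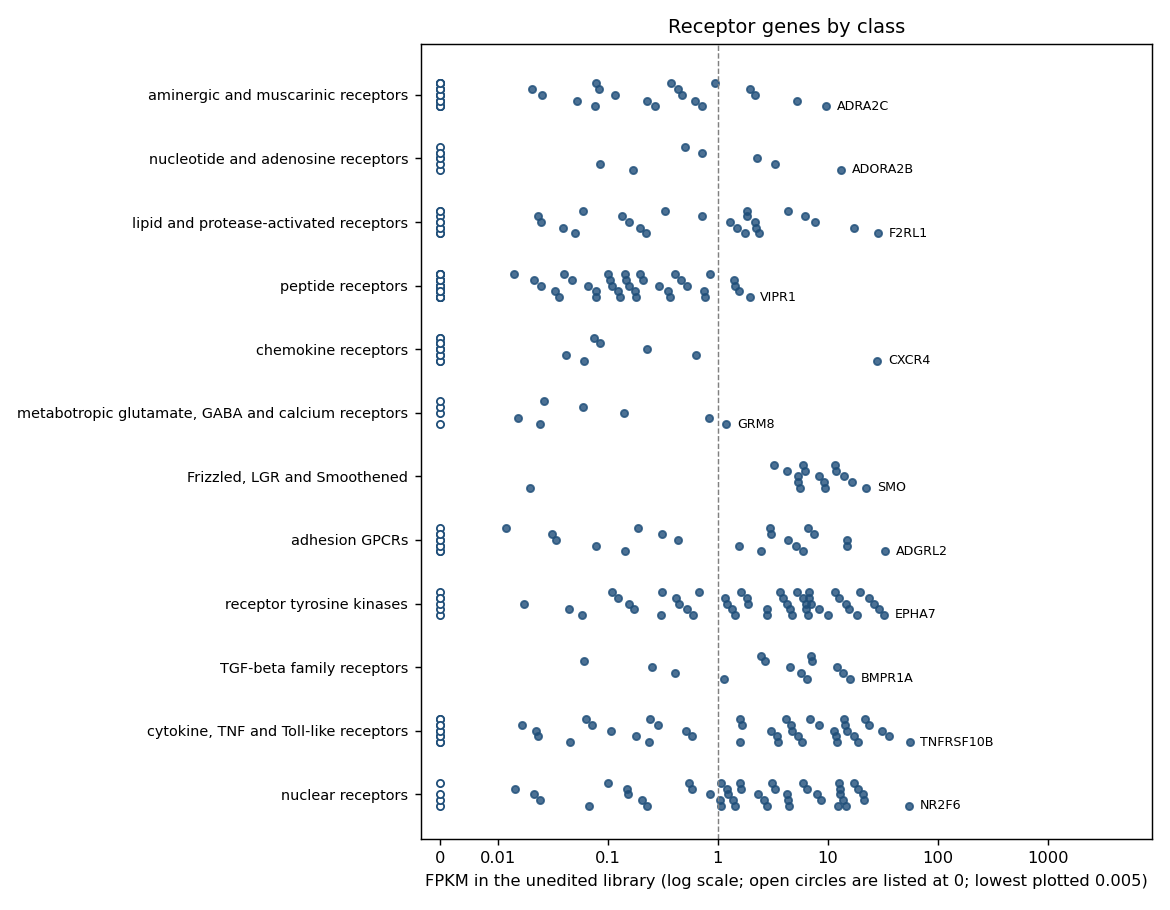
FPKM (log scale) of receptor genes in 12 classes, 1 class per row, with open circles for genes listed at 0 and the highest gene of each class named. In the first 6 classes 26 of 174 genes stand right of the dashed line at 1 FPKM, against 15 of 16 in the Frizzled, LGR and Smoothened class.

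Of 49 cytokine, TNF and Toll-like receptor genes, 26 (53.1%) reached 1 FPKM, against 61.3% of all protein-coding symbols. The death receptor TNFRSF10B stood at 55.5 FPKM, and both chains of the interferon gamma receptor, IFNGR1 and IFNGR2, at 36.4 and 31.5 FPKM. TLR3, the receptor for double-stranded RNA, stood at 0.518 FPKM, and TLR2, TLR4, TLR7 and TLR8 were listed at 0. Nuclear receptors were led by the COUP family, with NR2F6 at 55.2 FPKM, NR2F1 at 21.6 FPKM and NR2F2 at 20.8 FPKM, and the glucocorticoid receptor NR3C1 stood at 17.2 FPKM. The lipid sensor PPARG stood at 12.3 FPKM and the oestrogen receptor ESR1 at 0.101 FPKM. RXRB, at 0.151 FPKM, lies in the low stretch of chromosome 6.

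Behind the receptors, GNAS, the stimulatory G protein alpha subunit, stood at 1002 FPKM, 10.3 times above the inhibitory GNAI2 at 96.8 FPKM. GNA11 and GNAQ, which couple to phospholipase C, stood at 33.0 and 13.5 FPKM, and the retinal and blood cell forms GNAT1 and GNA15 at 0 and 0.0292 FPKM. ARRB2, an arrestin that ends signalling, stood at 55.2 FPKM and 25.5 times above ARRB1.

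Ion channels of excitable cells were low. Of 14 sodium channel genes, 3 reached 1 FPKM, led by SCN9A at 2.37 FPKM. Of 39 potassium channel genes, 15 (38.5%) did, against 61.3% of all protein-coding symbols. KCNK1, at 11.9 FPKM, was the only potassium channel gene at or above 10 FPKM. Of 18 calcium channel genes, 7 reached 1 FPKM, with the pore-forming CACNA1H at 1.95 FPKM. Of 47 ligand-gated channel genes, 8 reached 1 FPKM, among them CHRNA5, a nicotinic subunit, at 11.4 FPKM. The mechanosensitive PIEZO1, the store-operated ORAI1 and the volume-regulated LRRC8A stood at 15.4, 9.68 and 14.2 FPKM.

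Among adhesion genes, CDH2, N-cadherin, stood at 52.5 FPKM, 13.1 times above CDH1, E-cadherin, at 3.99 FPKM, and 6 of 21 classical cadherin genes reached 1 FPKM. The catenins CTNNB1 and CTNNA1, which tie cadherins to actin, stood at 188 and 153 FPKM. The desmosomal genes DSG2, DSC3 and DSP stood at 49.0, 28.2 and 24.4 FPKM, and the tight junction genes TJP1 and OCLN at 15.1 and 6.45 FPKM. CLDN2 and CLDN10, claudins of kidney tubules, were listed at 0. GPC3, a heparan sulphate proteoglycan of embryonic tissues, stood at 122 FPKM.

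Integrins were led by a single beta chain. ITGB1, the common integrin beta chain, stood at 70.1 FPKM, 6.37 times above ITGB5, and only ITGB8 besides these reached 1 FPKM among 8 beta chains. Of 18 alpha chains, 11 reached 1 FPKM, led by the laminin-binding ITGA6 at 13.4 FPKM and by ITGAV and ITGA5, of vitronectin and fibronectin receptors, at 11.7 and 9.21 FPKM. COL6A1 stood at 67.4 FPKM, LAMC1, the common laminin gamma chain, at 40.8 FPKM, NID1 at 35.5 FPKM and FN1 at 28.3 FPKM. Focal adhesion genes were led by FLNA at 297 FPKM, ACTN4 at 80.4 FPKM, ZYX at 53.8 FPKM and VCL at 50.3 FPKM. Of 34 such genes, 25 (73.5%) stood at or above 1 FPKM, against 61.3% of all protein-coding symbols.

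Genes that bear on the use of the line as a host for viruses and plasmids were uneven. MB21D1, the cytosolic DNA sensor cGAS, was listed at 0, while TMEM173, which encodes its partner STING, stood at 17.4 FPKM. The RNA sensors IFIH1 and DDX58 stood at 4.40 and 2.66 FPKM, and the antiviral effectors OAS1 and OAS2 were listed at 0 with OAS3 at 5.76 FPKM. CXADR, the coxsackievirus and adenovirus receptor, stood at 23.2 FPKM and KIAA0319L, a receptor of adeno-associated virus, at 25.5 FPKM. Of 32 virus entry receptor genes, 23 (71.9%) stood at or above 1 FPKM, against 61.3% of all protein-coding symbols. CD4 was listed at 0.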

How the data were processed

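The submitters' processing notes name cutadapt 2.10, HISAT2 2.2.1, Cuffdiff 2.2.1 and hg19. Which settings and which annotation went with them is not given in the sources used here. Each library has a table of FPKM, which the authors scaled for transcript length and library size before they deposited it. FPKM are not counts, so no count model was used, and an exact 0 can be a failed estimate. Of 26237 rows, 28 carried dates, as spreadsheets make of septin and MARCH symbols, and were left out. They summed to 699 FPKM. Levels were used as deposited. Shares are of the summed FPKM.

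Gene types, synonyms and gene order came from RefSeq, which is of another build than hg19, so none of its gene coordinates were used with the table, and 1161 symbols had no RefSeq type. Older or newer symbols in 91 gene lists were matched through RefSeq synonyms. Promoter windows are RefSeq's, in GRCh38.p14, and 14304 were matched to coding symbols. Depth came from the largest spacing on which low values fall as whole multiples, over transcript lengths of GENCODE release 29. This release may not be the authors' annotation. The method was tried on data simulated with fragments of 200 bases and the same transcript lengths, so that trial cannot check either assumption. With fragments of 150 or 300 bases assumed, the depth came to 16000000 and 17100000 fragments, against 16300000 with 200 bases.

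The symbols and lists were chosen with earlier results of these data known. Named genes were the 30 with the highest FPKM, up to the 10 highest members at or above 1 FPKM of a list, families of up to 8 members and cell type markers at any level. Other genes named were chosen after their values were seen, and not all that the rule allows are named: some genes of the lists are not reported here. Since there is 1 library, there is no test, and no p-value is given. The tables of log2 ratios were not used here. Python 3.11.15 with pandas 2.3.3 and NumPy 2.4.6 was used.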

Additional observations from a re-analysis of the deposited data

How the results depend on the processing

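No paired analysis was possible because the values come from 1 library and from no test. At a threshold of 10 FPKM, 6905 symbols and 619 list members were counted, against 12330 and 1052 at 1 FPKM, and 49 of 91 lists moved by more than 1.5 times; at 0.5 FPKM 9 lists did. The 100 highest symbols held 29.7% of the summed FPKM with and without small RNA genes, and 23.1% when weighted by median transcript length, available for 90.2% of symbols. The median log2(FPKM + 1) of list members was 1.53, against 0.99 with a pseudocount of 0.1 and 1.55 without the low stretches of chromosomes 6 and X. This last setting was chosen after seeing the data, as was the count of symbols at or above 1 FPKM in all 3 libraries, 11817. Rescaling to a sum of 1000000 multiplies every level by 1.89 and gave 13187 symbols and 1132 list members at or above 1. The number of families led by at least 10 times stayed at 8 with pseudocounts of 0.1 and 1 FPKM. These settings do not bear on the uncertain level of SLC25A6, an ADP/ATP carrier. With 16300000 fragments, levels under about 0.1 FPKM rest on a few fragments. The causes of the low stretches and of pseudogene levels above their parents were not tested.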

Other observations

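Imprinted genes were present in part. Of 29, 11 stood at or above 1 FPKM and 9 were listed at 0. PEG10, a retrotransposon-derived gene of the placenta, stood at 141 FPKM and its neighbour SGCE at 27.5 FPKM. The fetal growth factor gene IGF2 stood at 0.256 FPKM and H19, the non-coding RNA beside it, at 0.114 FPKM, while the receptor gene IGF2R stood at 23.1 FPKM. PEG3, NDN and MAGEL2 were listed at 0. SNRPN and SNURF, which share 1 transcript unit, were both listed at 0, and how reads were shared between them is not given in the sources used here.

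Germ cell and cancer-testis genes were low, with 3 of 39 at or above 1 FPKM and 23 listed at 0. LIN28B, which blocks the maturation of let-7 microRNAs, stood at 26.0 FPKM, while its paralog LIN28A was listed at 0. PRAME stood at 1.96 FPKM, and MAGEA1 at 0.0808 FPKM.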
